A study of Mus musculus with 4 samples.

Results

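Ido1, Ido2, Kynu, Kmo and Il4i1 encode enzymes that break down tryptophan or its product kynurenine, and they were described in spatial transcriptomes of 4 MC38 tumor sections. They were taken by symbol, as 5 of the 32285 genes in the tables. The set was chosen by measured values of these same sections, the UMI counts of Ido1 and its relatives in the 2 host strains, so their levels by strain are given as a description with no test. In Visium, each barcoded spot on the slide captures RNA from the tissue above it, and RNA molecules are counted as unique molecular identifiers (UMIs). A spot is a small region that can hold several cells, so nothing here is measured in a single cell.

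MC38 is a colon carcinoma line of C57BL/6 origin, and it grew here under the skin of F1 mice with 1 C57BL/6J parent. The other parent was CC075/UncJ for the strain called CC075F1 (2 sections) and CC080/TauUncJ for CC080F1 (2 sections). The study classes CC075F1 as a responder and CC080F1 as a non-responder to anti-PD-1 treatment. All hosts were females of 8 to 12 weeks. They received 1 dose of 200 µg of the isotype control antibody 2A3 when tumors measured 75 to 110 mm3, and fresh frozen tumors were taken 48 hours later. No anti-PD-1-treated section was analysed here. With 2 sections per strain, the spread measured within a strain is that between 2 tumors.

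The sections held 2710 to 3276 spots each (11947 in all) and 82594649 to 146460975 UMIs, with median depths of 31139 to 41740 UMIs per spot. Shisal2b, which the study uses to mark MC38 cells, stood at 123 to 267 CPM (UMIs scaled to the section total) in every section. Lyz2, a macrophage gene, stood at 1200 to 2290 CPM. The epithelial genes Krt8, Krt18, Krt20 and Epcam were each under 0.4 CPM. CC075F1 replicate 2 differed from the others in 2 respects that touch results below. It held 181 spots (5.53%) with 10 UMIs or more of 8 skin, muscle and fat genes, against 0, 18 and 1 spots elsewhere, and its level of Igkc (immunoglobulin kappa) was 16.5 CPM against 0.460 to 1.70 CPM elsewhere. Pairs of sections shared 2016 to 2793 spot barcodes, since all Visium slides use the same barcode set.

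Most tryptophan that cells do not build into protein leaves by the kynurenine route. IDO1 and the related IDO2 open the indole ring, KMO hydroxylates kynurenine, and KYNU cleaves kynurenine and 3-hydroxykynurenine. IL4I1 is a secreted oxidase that turns tryptophan and phenylalanine into keto acids by another path. In tumors the enzymes that act on tryptophan itself are known for lowering its local level. They are also known for making ligands of the aryl hydrocarbon receptor, which dampen T cells. Ido1 is a textbook target of interferon gamma (IFN-γ), and in the mouse it is known from dendritic cells and from vessel walls.

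On GRCm38, Ido1 (8:24584136-24597009) and Ido2 (8:24531892-24576333) lie next to each other on the minus strand of chromosome 8, with 7802 bases between them. Kynu lies at 2:43555329-43682715 and Kmo at 1:175620381-175662116, both on the plus strand. Kmo overlaps the antisense gene Fh1 by 5255 bases. Il4i1 (7:44816387-44840809, plus strand) shares 14426 bases with Nup62 on the same strand. Its counts may depend in part on how reads from there were assigned, which was not checked. Nup62 ends at 44830812, before the end of Il4i1. The antisense genes Tbc1d17 and Atf5 overlap Il4i1 by 6187 and 272 bases. The RefSeq promoters at hand covered Kmo and Il4i1, 2 of the 5 genes. They are shown for that reason alone, since promoters of Ido1, Ido2 and Kynu were not available here. Each line runs 5′ to 3′ through the 250 bases before the start site (GRCm38.p6, plus strand, chr1:175631943-175632193 for Kmo and chr7:44836038-44836288 for Il4i1), and the capital marks the first transcribed base.
Kmo: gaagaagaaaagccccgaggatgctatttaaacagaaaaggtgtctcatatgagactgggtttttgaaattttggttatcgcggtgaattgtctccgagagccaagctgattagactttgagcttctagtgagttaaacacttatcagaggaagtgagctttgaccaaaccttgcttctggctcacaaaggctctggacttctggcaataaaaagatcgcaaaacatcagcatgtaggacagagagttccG
Il4i1: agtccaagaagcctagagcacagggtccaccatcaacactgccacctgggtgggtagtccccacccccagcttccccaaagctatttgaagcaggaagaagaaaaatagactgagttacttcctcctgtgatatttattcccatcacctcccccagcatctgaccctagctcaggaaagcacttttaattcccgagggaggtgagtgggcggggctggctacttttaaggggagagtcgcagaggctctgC
Neither promoter, searched to 50 bases past the start, held the core of the interferon-stimulated response element or the gamma-activated site TTCNNNGAA on either strand. These motifs occur in 3.44% and 8.3% of 32851 promoters of the same length. The Il4i1 start site lies 5476 bases past the end of Nup62. Each of these start sites lies inside its gene as annotated above, which begins at 175620381 for Kmo and 44816387 for Il4i1. Starts further upstream were not searched.

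Ido1 was high in both CC075F1 sections and low in both CC080F1 sections. Its level was 5.19 CPM (429 UMIs) in CC075F1 replicate 1 and 4.26 CPM (624 UMIs) in replicate 2. In CC080F1 it was 0.321 CPM (30 UMIs) and 0.319 CPM (36 UMIs). The strain means, 4.73 ± 0.660 and 0.320 ± 0.0008 CPM (SD, n = 2), differed 14.8-fold, and the groups did not overlap. With 2 sections per strain, groups can separate by chance, and the share of all genes that did so was not counted. Ido1 was found in 12.8% (95% exact interval 11.6 to 14.1) and 15.05% (13.8 to 16.3) of CC075F1 spots and in 1.00% (0.669 to 1.45) and 1.07% (0.743 to 1.49) of CC080F1 spots. These intervals cover counting error only. After each spot was thinned to 10000 UMIs, with shallower spots left out, the shares were 4.79% and 4.55% against 0.280% and 0.297%, a ratio of 16.2, so the gap did not shrink at equal depth. Most Ido1 spots held a single UMI. Spots with 2 UMIs or more numbered 67 and 103 in CC075F1 against 2 and 2 in CC080F1, and the highest count in any spot was 6.

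Ido2, the neighbor of Ido1, followed the same order at 1.63 CPM (135 UMIs) and 0.580 CPM (85 UMIs) in CC075F1 and 0.0641 CPM (6 UMIs) and 0.0887 CPM (10 UMIs) in CC080F1. The ratio of means was 14.5, and here too the share of all genes that separate the strains was not counted. The CC075F1 sections differed widely from each other, however, and the ratio was 7.59 without CC075F1 replicate 1 and 21.4 without replicate 2. Ido2 spots made up 4.72% and 2.50% of CC075F1 sections and 0.215% and 0.315% of CC080F1 sections.

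Kmo ran the other way. Its level was 1.37 CPM (113 UMIs) and 0.935 CPM (137 UMIs) in CC075F1 and 2.44 CPM (228 UMIs) and 3.03 CPM (341 UMIs) in CC080F1. The means were 2.73 ± 0.42 CPM in CC080F1 against 1.15 ± 0.31 CPM in CC075F1, a ratio of 2.37. As for Ido1 and Ido2, 2 sections per strain can separate by chance. Kmo spots made up 3.99% and 3.97% of CC075F1 sections and 7.50% and 9.77% of CC080F1 sections. Il4i1 was also higher in both CC080F1 sections, at a ratio of 1.55. It stood at 0.605 (50 UMIs) and 0.451 CPM (66 UMIs) in CC075F1 and 0.759 (71 UMIs) and 0.879 CPM (99 UMIs) in CC080F1. With 50 to 99 UMIs per section and 2 sections per strain, such a separation can arise by chance. Kynu did not separate the strains. It stood at 0.472 CPM (39 UMIs) and 0.212 CPM (31 UMIs) in CC075F1 and at 0.224 CPM (21 UMIs) and 0.293 CPM (33 UMIs) in CC080F1, and its ratio of CC075F1 to CC080F1 moved from 1.83 to 0.818 when the second or the first CC075F1 section was left out. From spot sums, fewer cells that express a gene and less of its RNA per cell cannot be told apart.

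**Figure D1:**
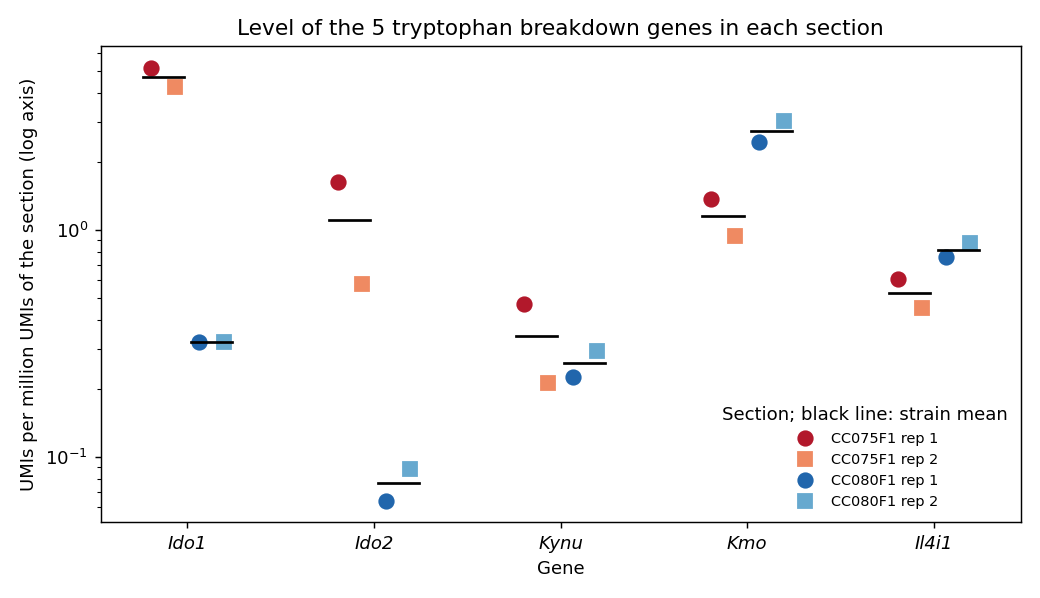
Level of each of the 5 genes in each section, in CPM on a log axis, with points for sections and a black line for the mean of the 2 sections of a strain. Ido1 and Ido2 sit higher in both CC075F1 sections (Ido1 4.26 and 5.19 CPM against 0.319 and 0.321), Kmo and Il4i1 sit higher in both CC080F1 sections, and the Kynu points overlap.

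The remaining genes of the pathway did not pass the test between strains. In an edgeR quasi-likelihood fit of the 4 section sums, 14 of 15572 genes (0.0899%) passed an adjusted p of 0.05, and none of 37 tested genes of tryptophan handling or Ido1 control was among them (846 genes had an unadjusted p under 0.05). The 8 tested enzymes of the kynurenine route had a median log2 difference, CC075F1 minus CC080F1, of -0.086, beside -0.019 over all tested genes. The 6 genes of tryptophan supply had a median of -0.20, the 4 of the serotonin route 0.26, the 8 of the aryl hydrocarbon receptor axis -0.038 and the 11 inducers and regulators of Ido1 0.047. Tdo2, the liver-type enzyme for the same first step, was at 0, 0.287, 0.0214 and 0.399 CPM, with the 2 strains overlapping.

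Haao and Ifng came nearest to a difference. Haao, the enzyme after KYNU in the route, stood at 1.95 and 2.82 CPM in CC075F1 and 0.513 and 1.22 CPM in CC080F1 (log2 difference 1.82, SE 0.57, edgeR adjusted p = 0.653). Ifng, the inducer, stood at 2.57 and 2.29 against 0.492 and 0.941 CPM (2.06, SE 0.46, edgeR adjusted p = 0.348). Without CC080F1 replicate 2, which leaves 1 CC080F1 section, the log2 differences were 2.67 for Haao and 2.70 for Ifng. Both passed when low counts were not filtered and when replicate number entered the fit as a block (edgeR adjusted p = 0.016 for Haao and 0.0092 for Ifng). Ifng also passed by the DESeq2 Wald test (adjusted p = 0.0021). Each of these settings called far more genes of all kinds than the main fit, with the counts given in the last section. Slc7a5, a large neutral amino acid transporter that carries tryptophan, was at 33.9 and 48.4 against 84.4 and 65.3 CPM (log2 difference -0.47, not passing). Among 23 IFN-γ response genes all 23 differences were positive (median 0.83), yet none passed. Only 1 of 16 blood endothelial genes and 3 of 19 type I interferon genes had a positive difference.

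Most member spots held only 1 of the 5 genes, yet several pairs of genes shared more spots than depth alone predicts. Spots with any of the 5 genes made up 21.5% and 21.7% of CC075F1 sections and 11.3% and 14.4% of CC080F1 sections. Spots with 2 of the 5 genes numbered 69 and 77 in CC075F1 against 15 and 24 in CC080F1, and no spot held 4. Given spot depth, in 10 strata, Ido1 and Ido2 shared 57 spots where 32.0 were expected from independent placement, 35 against 19.2 in CC075F1 replicate 1 and 22 against 12.6 in replicate 2. In CC080F1 no spot held both, and the depth-based expectation there was under 0.1 spots per section. Ido1 and Kmo shared 64 spots against 40.5 expected, with more than expected in each section. Ido1 and Kynu shared 25 against 10.7 and Kynu and Kmo 16 against 7.58. Kmo and Il4i1 shared 20 against 20.6, and Ido1 and Il4i1 shared 20 against 18.5. These are counts of spots within sections and carry no test.

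**Figure D2:**
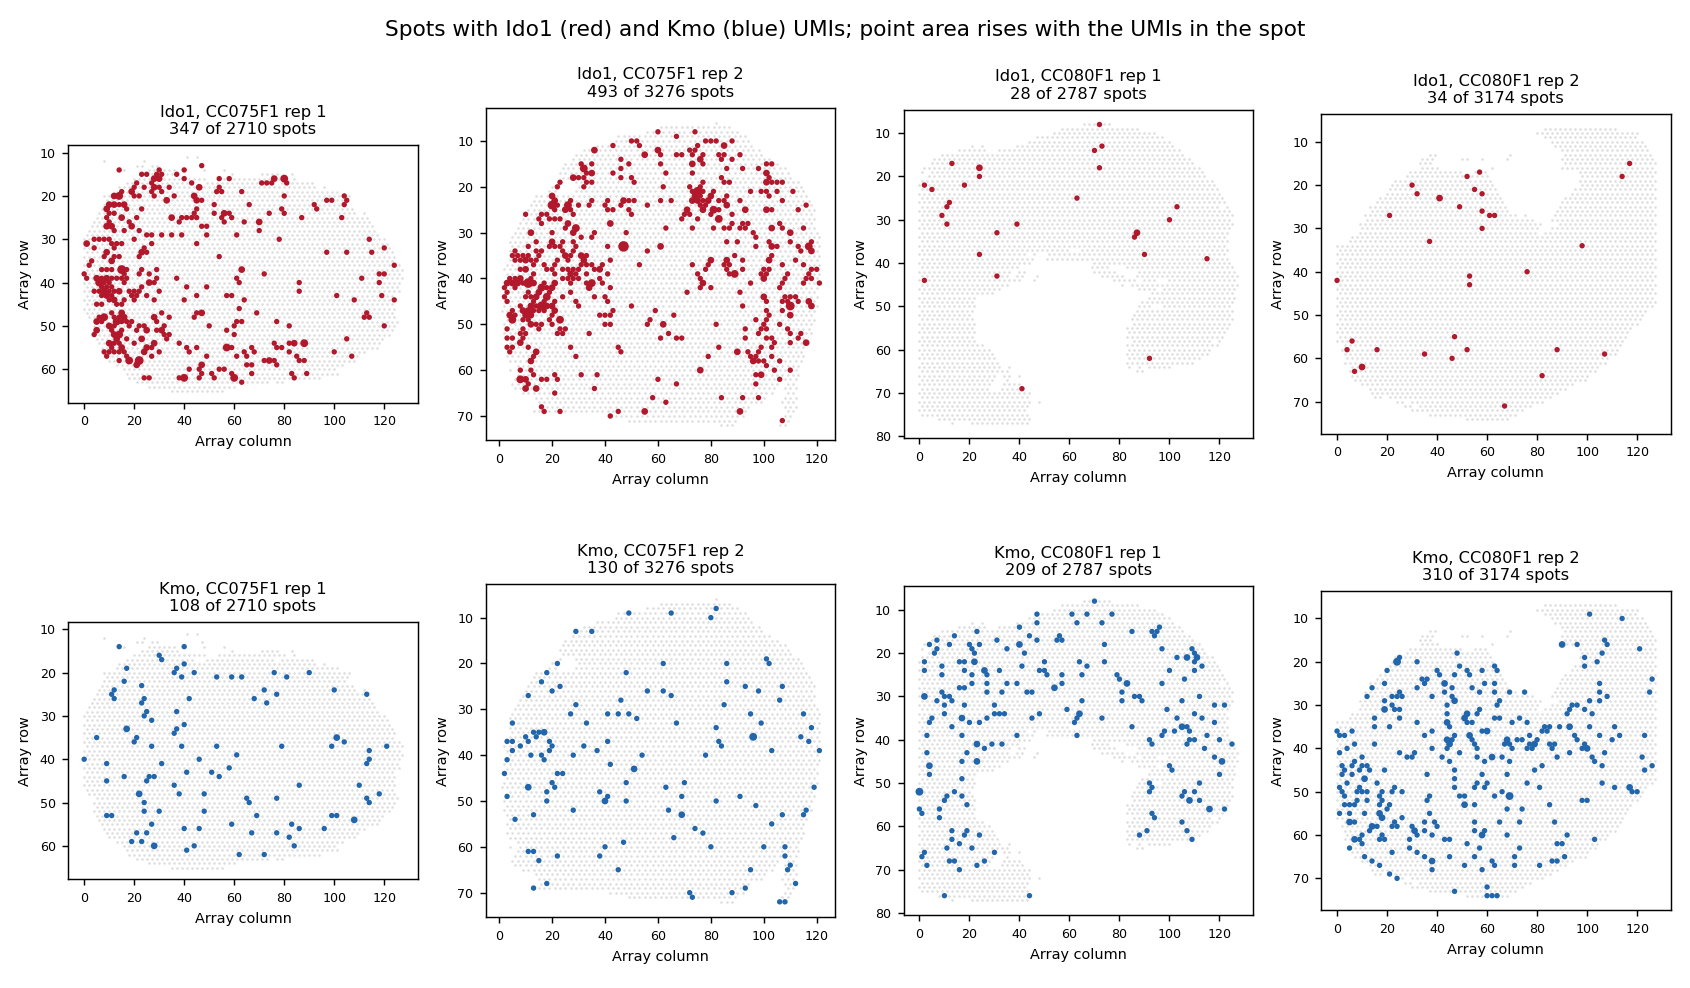
Array position of every spot in the 4 sections, by array row and column, with Ido1 spots in red and Kmo spots in blue over all spots in gray. Red spots number 347 and 493 in CC075F1 against 28 and 34 in CC080F1, and blue spots number 108 and 130 against 209 and 310.

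In CC075F1, Ido1 was denser at the border of the tissue. Within 3 steps of a position off tissue it stood at 9.07 CPM against 4.50 in the interior of replicate 1 and at 6.61 against 3.91 in replicate 2. In CC080F1, where few UMIs were counted, the edge was 0.671 and 1.69 times the interior, beside 2.02 and 1.69 times in CC075F1. Il4i1 and Kmo had their largest ratios, 4.63 and 2.66, in CC075F1 replicate 2, the section with adjoining muscle and skin genes. Kmo had ratios of 1.13, 0.905 and 0.976 elsewhere. Without the spots of other tissue, Ido1 in CC075F1 replicate 2 was 4.01 CPM, and Il4i1 was 0.406 CPM.

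The next question was what else is found where Ido1 is found. In each section every Ido1 spot was paired with an Ido1-free spot of equal depth (347, 493, 28 and 34 pairs), the UMIs of each class were summed, and the 8 sums were fitted in edgeR with the section as a block and Ido1 itself left out. Median depths of Ido1 spots before matching were 34988, 42909, 40811 and 37316.5 UMIs, above the 30674, 41593, 33610 and 34675 UMIs of other spots. With 840 of the 902 pairs from CC075F1, the fit mainly describes that strain. Of 12410 genes tested, 277 (2.23%) were higher and 242 (1.95%) lower in Ido1 spots, 318 of them in the same direction in every section. The summed pairs do not separate what lies in the same spot from what lies in the same area of the tumor, so the IFN-γ, endothelial, hypoxia and fibroblast lists are also given below against the nearest Ido1-free spot. In that comparison no gene of the type I interferon, dendritic cell, macrophage, T cell, cytotoxic, tryptophan supply or aryl hydrocarbon receptor lists passed, nor did Tgfb1. The granzyme genes Gzmd (log2 -0.85), Gzmf (-0.90) and Gzmg (-0.85), which are outside the cytotoxic list, passed lower there. None of them passed at equal depth.

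Genes of the IFN-γ response were higher in Ido1 spots. Of 23 tested, 20 passed higher and none lower, against 2.23% of all genes, with a median log2 difference of 0.43 beside -0.0065 over all tested genes. Psmb8, Psmb9 and Cd274 did not pass. Cxcl9, a T cell attractant made under IFN-γ, was at 429 against 291 CPM and 518 against 259 CPM in the CC075F1 sections and at 101 against 63.7 and 212 against 119 CPM in CC080F1 (log2 difference 0.73, SE 0.053, edgeR adjusted p = 8.4e-15). It was higher in Ido1 spots of 4 of 4 sections. The class II antigen presentation genes moved the same way in each section. Cd74, the invariant chain, was at 2324 against 2117, 1942 against 1446, 458 against 280 and 653 against 423 CPM (log2 0.35), and H2-Ab1 and H2-Aa rose by 0.40 and 0.32 on the log2 scale. The summed level of the whole list was higher in Ido1 spots of every section, at 6839 against 5946, 6173 against 4326, 2403 against 2043 and 3533 against 2572 CPM. Against the nearest Ido1-free spot 5 of 23 passed, Cxcl9 among them at a log2 difference of 0.13. Without CC075F1 replicate 2, 12 of 22 passed, and by the DESeq2 Wald test 10 of 23.

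Of 19 type I interferon genes 1 passed higher in Ido1 spots. Among inducers and regulators of Ido1, Tgfb1, a cytokine that also induces Ido1 in dendritic cells, passed narrowly (log2 0.19, edgeR adjusted p = 0.049) and lost the call when either CC075F1 section or CC080F1 replicate 2 was left out. Irf1 did not pass (0.16, edgeR adjusted p = 0.080). Ifng itself was at 2.22 against 1.81 and 3.03 against 1.84 CPM in CC075F1 (edgeR adjusted p = 0.40). The type I interferon gene that passed was Zbp1, which did not pass without CC075F1 replicate 2, and the median of the 19 was 0.00. Isg15, a classic member, was at 46.3 against 51.5 and 79.1 against 71.9 CPM in CC075F1.

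Blood endothelial genes were higher in Ido1 spots of CC075F1. Of 16 tested, 11 passed higher and none lower (median log2 0.48), among them Pecam1, Cdh5, Kdr, Flt1 and Emcn, which mark or build the vessel lining. Plvap, a protein of fenestrated vessel walls, was at 40.4 against 23.7 and 30.9 against 17.7 CPM in the CC075F1 sections (log2 0.59, SE 0.087) but at 44.2 against 57.5 and 44.2 against 40.3 CPM in CC080F1. Egfl7 was at 29.1 against 21.2 and 35.4 against 25.9 CPM in CC075F1 and nearly equal in CC080F1 (36.3 against 36.3 and 37.2 against 36.4 CPM). The strain difference in the Ido1 spot contrast was tested as an interaction, and Plvap did not pass it (difference 0.87, SE 0.21, edgeR adjusted p = 0.473), nor did any of the 16. The summed list stood at 269 against 182, 219 against 151, 365 against 340 and 285 against 280 CPM. This group leaned on both CC075F1 sections: 2 of 13 tested genes passed without replicate 1 and 4 of 13 without replicate 2. None passed by the DESeq2 Wald test, and none against the nearest Ido1-free spot, where the median was -0.03.

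Hypoxia genes were lower. Of 10 tested, 9 passed lower and none higher (median log2 -0.65, beside 1.95% of all genes lower), and Adm did not pass. Bnip3, a mitochondrial protein induced by HIF-1, was at 82.9 against 144, 81.8 against 179, 92.0 against 142 and 62.8 against 143 CPM (log2 -1.03, SE 0.060, edgeR adjusted p = 7.2e-18). Ldha and Pgk1, enzymes of glycolysis, fell by 0.30 and 0.37 on the log2 scale, and Slc2a1, the glucose transporter GLUT1, fell by 0.78. Each of these 4 was lower in all 4 sections. Leaving out any section left 9 passing, while against the nearest Ido1-free spot none passed (median -0.02).

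Defining dendritic cell genes were sparse in Ido1 spots and matched spots alike, and some were seen in more Ido1 spots than matched spots. For type 1 dendritic cells, Irf8 alone passed of 7 tested, at 39.4 against 30.9, 30.8 against 22.9, 35.4 against 27.4 and 47.3 against 24.8 CPM (log2 0.37, edgeR adjusted p = 0.00079). Irf8 is also expressed by macrophages. The defining markers Xcr1 and Clec9a were too low to test. Clec9a was seen in 18 Ido1 spots against 8 matched spots and in 23 against 9 in CC075F1, and in 1 against 0 in both CC080F1 sections. Xcr1 was seen in 13 against 12 and 13 against 10 spots in CC075F1. Of the type 2 and shared genes, Mgl2 (log2 0.85) and Itgax (0.36) passed, and neither did without CC075F1 replicate 1. Mgl2 was at 22.0 against 8.97 CPM in that section and 2.14 against 2.26 CPM in the other CC075F1 section.

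Among genes of mature migratory dendritic cells, Ccl17, a chemokine for CCR4-bearing T cells, passed higher at 10.5 against 3.05, 1.71 against 0.641, 11.5 against 0.884 and 1.55 against 0.775 CPM (log2 1.71, edgeR adjusted p = 5.2e-07). It was higher in 4 of 4 sections but no gene of the list passed without CC075F1 replicate 1. Zmynd15 was lower, and Fscn1, Ccr7 and Ccl22 did not pass, with Ccr7 seen in 24 Ido1 spots against 6 matched spots in CC075F1 replicate 1 and in 34 against 26 in replicate 2. The plasmacytoid list had 1 testable gene, Cox6a2, which was lower (log2 -0.63, not passing without CC075F1 replicate 2) and which muscle also expresses. None of 13 macrophage genes passed, and their summed level was 6213 against 6653 and 5812 against 4908 CPM in CC075F1 and 4000 against 4373 and 4200 against 4130 CPM in CC080F1.

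Lymphocyte and stromal genes gave smaller counts. Of 10 T cell genes Thy1 passed higher, but not when either CC075F1 section was left out. Of 8 cytotoxic genes Nkg7, Gzma and Klrk1 passed (log2 0.30, 0.70 and 0.61), and none of 5 tested without CC075F1 replicate 2. Col1a1, Col1a2, Bgn, Postn and Lum of the 8 fibroblast genes were higher, while Dcn and Pdgfra were lower. Col1a2, a fibrillar collagen, was at 80.2 against 38.9, 252 against 141, 58.4 against 31.8 and 132 against 51.9 CPM (log2 0.87). Against the nearest Ido1-free spot the direction turned: Col1a2 was lower by 0.20 on the log2 scale (-0.20, edgeR adjusted p = 5.1e-05), and 4 of 8 fibroblast genes passed lower with none higher. None of 6 cell division genes passed. Shisal2b, the MC38 marker, passed higher. Acta1, of skeletal muscle, was at 141 against 59.4 CPM in CC075F1 replicate 2 and under 1 CPM in the others, and Igkc was at 48.1 against 8.16 CPM in that section. With the spots of other tissue left out, 19 of 23 IFN-γ genes, 10 of 16 endothelial genes and 9 of 10 hypoxia genes still passed.

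**Figure D3:**
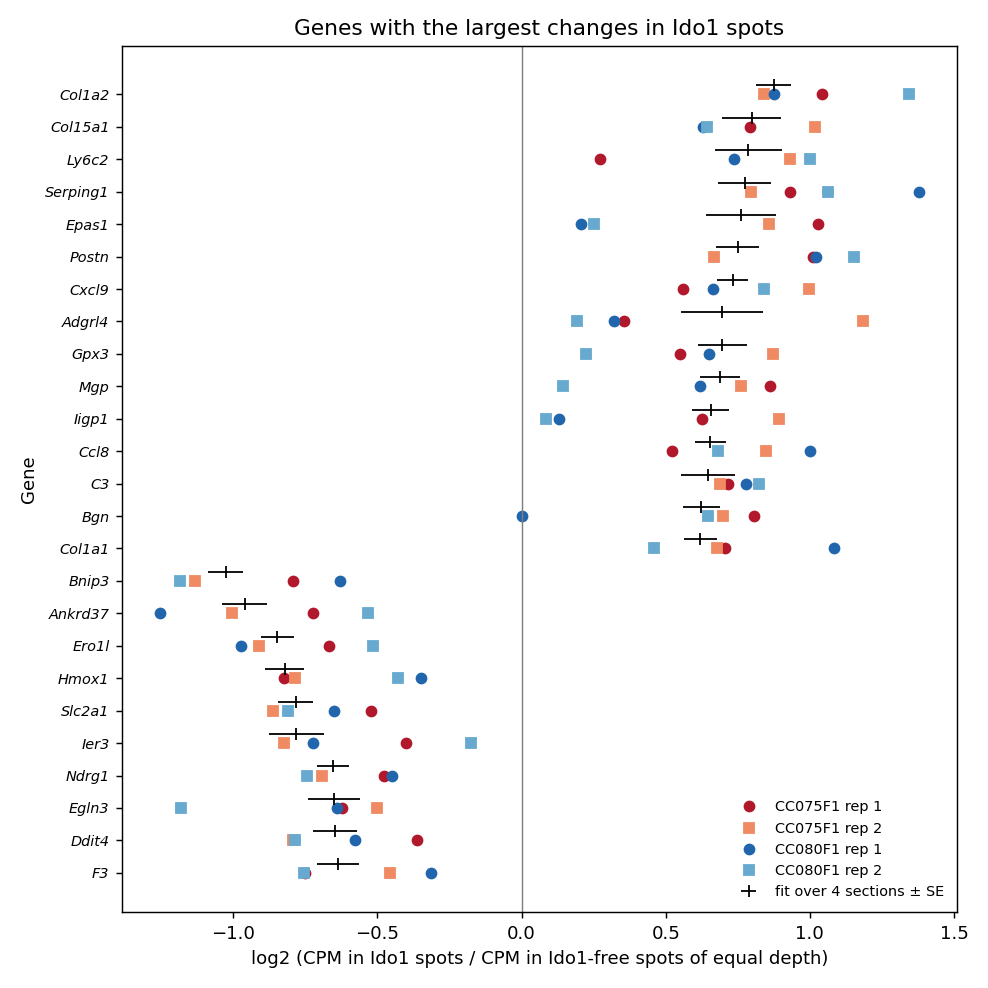
Log2 ratio of Ido1 spots over Ido1-free spots of equal depth for 25 named genes, with a point per section and the edgeR estimate with its SE. The hypoxia genes Bnip3, Ankrd37 and Ero1l lie below 0 in every section, and the collagen and interferon genes from Col1a2 (0.87) to Col1a1 (0.62) lie at or above 0 in every section.

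By size, the largest rises among genes of 10 CPM or more that moved alike in every section were Col1a2, Col15a1 (0.80), Ly6c2 (0.79), Serping1 (0.77), Epas1 (0.76), Postn (0.75) and Cxcl9. Ly6c2 is carried by inflammatory monocytes, Serping1 and C3 (0.65) belong to complement, and Epas1 and Adgrl4 (0.70) are vessel genes. Gpx3 (0.70), Mgp (0.69), Iigp1 (0.66), Ccl8 (0.66), Bgn (0.62) and Col1a1 (0.62) followed. The largest falls after Bnip3 were Ankrd37 (-0.96), Ero1l (-0.85), Hmox1 (-0.82), Slc2a1, Ier3 (-0.78), Ndrg1 (-0.65), Egln3 (-0.65), Ddit4 (-0.65) and F3 (-0.64). Several of these are targets of HIF-1 or of the integrated stress response. Nos2 and Ptgs2, inflammatory enzymes of myeloid cells, were also lower (log2 -0.57 and -0.51).

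Within the tryptophan pathway, 2 genes were lower in Ido1 spots. Slc3a2, the heavy chain that LAT1 (Slc7a5) needs at the membrane, was at 147 against 159, 156 against 172, 157 against 200 and 157 against 191 CPM (log2 -0.22, SE 0.048, edgeR adjusted p = 0.0024). It was lower in 4 of 4 sections. Wars, the tryptophanyl-tRNA ligase and itself an interferon target, did not pass (0.16, edgeR adjusted p = 0.18). Tiparp, a target of the aryl hydrocarbon receptor, was at 48.3 against 52.3, 30.2 against 34.9, 59.2 against 69.8 and 43.4 against 58.9 CPM (log2 -0.24, edgeR adjusted p = 0.019), and it did not pass without CC075F1 replicate 2. None of 6 testable kynurenine route enzymes passed. Of the other 4 members, Kmo (log2 0.91, edgeR adjusted p = 0.133), Ido2 (0.81, edgeR adjusted p = 0.225) and Il4i1 (-0.24) did not pass in Ido1 spots, and Kynu had too few UMIs to test.

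Spots of the other 4 genes were compared in the same way, each with spots free of that gene at equal depth. The Ido2 comparison was added after values were seen. In Ido2 spots (128, 82, 6 and 10 pairs), 107 of 11064 genes (0.967%) were higher and 85 (0.768%) lower. IFN-γ genes again led, with 17 of 23 higher and none lower (median log2 0.57), and 8 of 18 tested without CC075F1 replicate 2. Cxcl9 rose by 0.83 and Socs1, a brake on cytokine signaling, by 0.47 on the log2 scale. Of 14 endothelial genes Tie1, Esam, Egfl7 and Plvap passed, while 1 of 9 did without CC075F1 replicate 1, 2 of 9 without CC075F1 replicate 2 and 2 of 16 without CC080F1 replicate 2. Plvap was at 44.1 against 17.8, 31.5 against 18.9, 71.3 against 35.7 and 87.4 against 43.7 CPM, higher in each section. The largest rises besides Plvap (0.99) were Serpine2 (1.53), Gimap4 (1.17), Mgp (1.11) and Batf2 (1.01). The largest falls were Hbb-bs, a hemoglobin gene (-1.86), Gadd45a (-0.98), Bnip3 (-0.83), Ero1l (-0.66) and Slc2a1 (-0.65). Slc3a2 was lower here too (-0.25, edgeR adjusted p = 0.037), but passed only with all sections or without CC080F1 replicate 1 among the fits that left out a section. Against the nearest Ido2-free spot 3 genes passed in all, none of them from the IFN-γ, endothelial or hypoxia lists. There Bnip3 and Slc2a1 did not pass, with differences of 0.029 and 0.24.

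Kmo spots (108, 130, 209 and 310 pairs) drew mostly on CC080F1, and 227 of 12232 genes (1.86%) were higher and 166 (1.36%) lower. IFN-γ genes passed higher in 17 of 23 cases (median log2 0.36). Cxcl9 was at 470 against 297 and 476 against 256 CPM in CC075F1 and 84.4 against 41.9 and 156 against 104 CPM in CC080F1 (log2 0.70). Type I interferon genes were higher as well, with 14 of 19 passing and all 19 differences positive (median 0.38). They include Isg15 (log2 0.38), Rsad2, an antiviral enzyme (0.46), Irf7 (0.31) and Usp18 (0.57), and Cxcl10 of the IFN-γ list rose by 0.62. This count leaned on CC080F1 replicate 2, without which 5 of 19 passed (median 0.27), while 12 or 13 passed without any other section. Against the nearest Kmo-free spot 1 of 19 type I genes, 6 of 23 IFN-γ genes and none of the 10 hypoxia genes passed.

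Vessel and macrophage genes in Kmo spots were partly higher and hypoxia genes lower. Of 16 endothelial genes 7 passed higher (median 0.33), with 4 passing when either CC075F1 section was left out, 2 without CC080F1 replicate 2 and none against the nearest Kmo-free spot. Csf1r, C1qa and Fcgr1 of 13 macrophage genes passed, at 0.15, 0.11 and 0.22 on the log2 scale. None of the 13 passed without CC075F1 replicate 2, without CC080F1 replicate 2 or against the nearest spot. Hypoxia genes were lower in 9 of 10 cases (median -0.44), with Bnip3 at -0.73, Ankrd37 at -0.68 and Slc2a1 at -0.66. Mgarp (-0.68) and Mmp12, a macrophage elastase (-0.93), fell too. Slc3a2 (-0.15) and Tiparp (-0.32) were lower and Irf1 (0.16) and Socs1 (0.33) higher. None of these 4 passed against the nearest spot, Slc3a2 did not pass without CC080F1 replicate 2, and Irf1 did not when either CC075F1 section was left out. The largest rises, Mylpf (1.07) and Des (1.06), are muscle genes, and Mylpf was at 71.7 against 32.3 CPM in CC075F1 replicate 2 and under 8 CPM in each other section. Ly6c2 (0.84) and Serpina3g (0.80) came next.

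In Il4i1 spots the chemokines Ccl22 and Ccl17 and several matrix genes were higher. With 48, 66, 68 and 96 pairs, 128 of 11006 genes (1.16%) were higher and 12 (0.109%) lower. Ccl22 and Ccl17, ligands of CCR4 that mature dendritic cells secrete, were higher in 4 of 4 sections. Ccl22 was at 10.4 against 4.03 and 8.17 against 1.42 CPM in CC075F1 (log2 2.41, SE 0.38, edgeR adjusted p = 0.00014). Ccl17 was at 19.0 against 10.4 and 13.1 against 1.78 CPM in CC075F1 (log2 1.88, SE 0.32, edgeR adjusted p = 0.00045). These were the only 2 of 8 tested genes of the mature dendritic list to pass, and 2 of 8 passed against the nearest Il4i1-free spot as well. Arg1, the arginase of myeloid cells, was higher by 0.67. No gene of its list of immune regulators passed without CC080F1 replicate 2 or against the nearest spot. Of 23 IFN-γ genes 6 passed (median log2 0.24) and 1 against the nearest spot, and none of 19 type I genes did.

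Matrix genes led the rises in Il4i1 spots: Tnc (1.57), Col1a2 (1.27) and Col1a1 (1.16), with C3 (1.24) and Ccl6 (1.23). Col1a2 was at 95.6 against 84.6, 445 against 234, 88.4 against 22.3 and 366 against 89.8 CPM. Falls were small, from Zc3h18 (-0.35), Tgfb3 (-0.33) and Mt1 (-0.33) to the glycolytic Tpi1 (-0.23) and Eno1 (-0.20). Acta1 was at 300 against 50.4 CPM and Igkc at 49.4 against 11.4 CPM in CC075F1 replicate 2. Without spots of other tissue 70 genes were higher and 4 lower, and Ccl22 and Ccl17 were the 2 of 8 that passed in the mature dendritic list.

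Kynu spots were few (39, 30, 21 and 31 pairs), with 80 of 9722 genes (0.823%) higher and 56 (0.576%) lower. Without CC075F1 replicate 2 only 9 were higher and 9 lower. Of 22 IFN-γ genes 9 passed (3 without that section), and Cxcl9 rose by 1.19. Col1a1, Col1a2, Bgn and Postn of 8 fibroblast genes passed, and 7 of 9 hypoxia genes were lower (median -0.76), or 4 of 9 without CC075F1 replicate 2. Against the nearest Kynu-free spot 3 of 22 IFN-γ genes passed, and none of the fibroblast or hypoxia genes did. Leaving out spots of other tissue left 24 pairs in CC075F1 replicate 2. Then 8 of 22 IFN-γ and 4 of 8 fibroblast genes passed higher, and 7 of 9 hypoxia genes lower. Endothelial genes passed higher in 3 of 13 cases with these spots and in 1 of 13 without them. The largest rises were Col12a1 (2.24), Aebp1 (2.21), Ly6c2 (2.06), Mfap4 (1.96) and Tnc (1.84). Col12a1 was at 40.3 against 2.28 CPM in CC075F1 replicate 2 and at 19.0 against 6.08, 11.9 against 3.97 and 14.98 against 5.29 CPM elsewhere. The largest falls were Mgarp (-1.47), Slc2a1 (-1.45), Ankrd37 (-1.40), Ier3 (-1.14) and Ppp1r15a (-1.07). Slc2a1 was lower in each section, at 36.5 against 98.7 and 54.0 against 142 CPM in CC075F1.

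**Figure D4:**
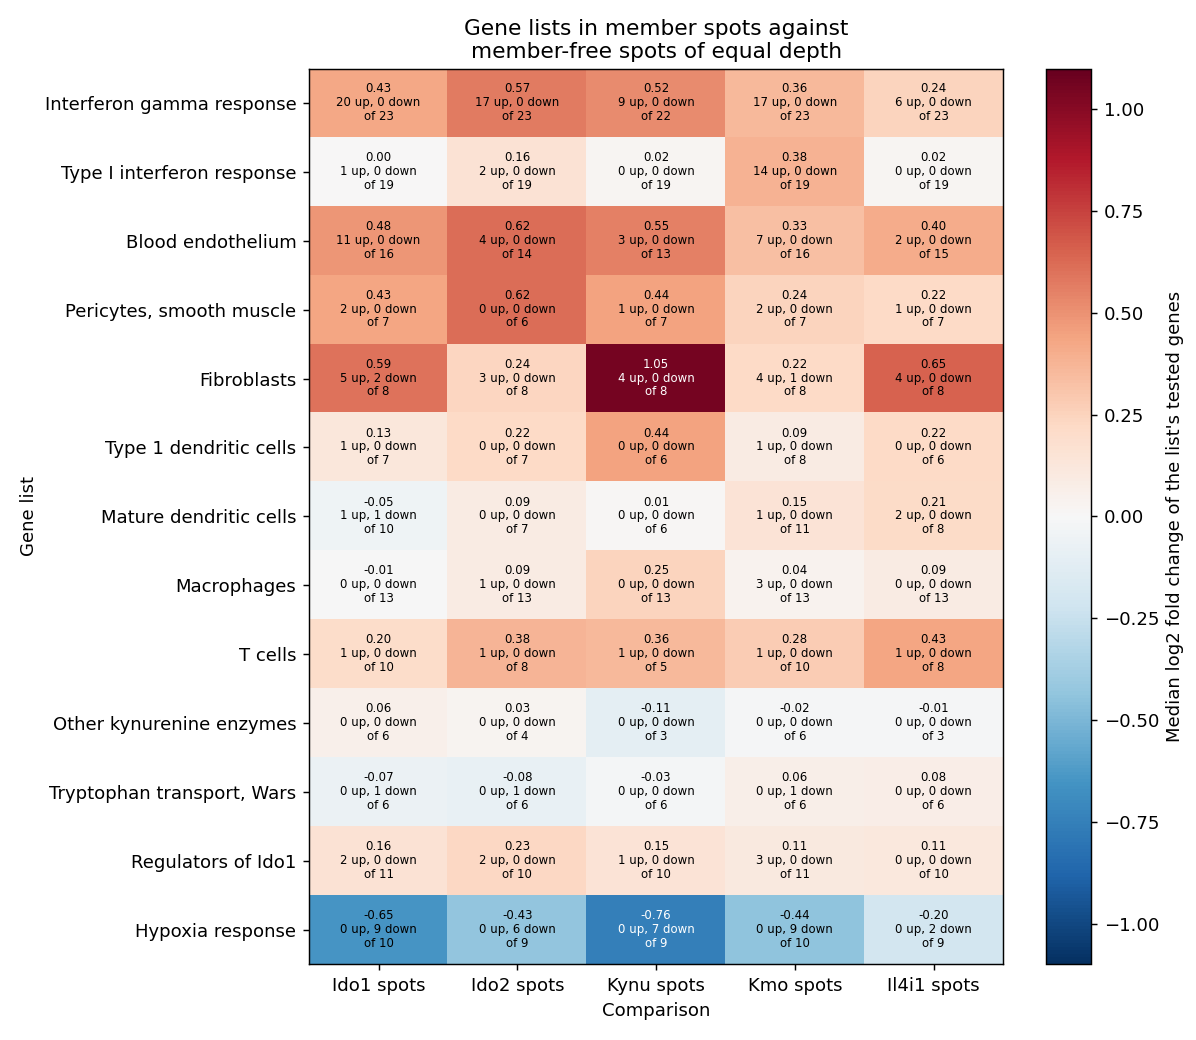
Median log2 difference of 13 gene lists (rows) in spots of each of the 5 genes (columns) over spots of equal depth without that gene, as colors with the value printed. IFN-γ genes are above 0 for all 5 genes (0.24 to 0.57), hypoxia genes below 0 for all 5 (-0.20 to -0.76), and type I interferon genes reach 0.38 for Kmo against 0.00 for Ido1.

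Since Ido1 and Kmo were highest in opposite strains, their spots were also set against each other, a comparison added after values were seen. Spots with Ido1 and no Kmo were paired with spots with Kmo and no Ido1 in the same section at equal depth (90, 97, 22 and 27 pairs). Of 10566 genes, 5 (0.0473%) were higher in Ido1 spots and 5 (0.0473%) in Kmo spots. So few calls may hold a large share of errors, so each gene named from them is open to doubt. Cxcl10 was higher in Kmo spots of all 4 sections, at 365 against 312, 350 against 302, 218 against 147 and 360 against 336 CPM (log2 Ido1 minus Kmo -0.23, edgeR adjusted p = 0.021). Cxcl9 went the other way in all 4 sections, at 518 against 450, 433 against 379, 82.0 against 71.2 and 197 against 139 CPM in Ido1 spots (log2 0.22, edgeR adjusted p = 0.039). Neither chemokine passed when either CC075F1 section was left out, and Cxcl9 did not pass without CC080F1 replicate 2. Hspb1 (-1.26), Gas6 (-1.07), Cox6a2 (-0.79) and Apoe (-0.17) were higher in Kmo spots and Nolc1 (0.25) in Ido1 spots. Slpi, Igkc and Ighg2c were higher in Ido1 spots almost wholly in CC075F1 replicate 2, Igkc at 190 against 10.3 CPM there. None of the 19 type I interferon genes passed in this direct comparison (median -0.17), so a difference between the 2 kinds of spot in that list was not shown. Leaving out 1 section gave 3 to 27 genes, the 3 without CC075F1 replicate 2 and the 27 without CC080F1 replicate 1.

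Ido1 was also followed across all spots, without matching. Spots were ranked in each section by the summed CPM of a list and split in quartiles. From the lowest to the highest quartile of IFN-γ genes, Ido1 went from 2.96 to 8.35 and from 1.15 to 10.4 CPM in CC075F1 and from 0.198 to 0.621 and from 0.119 to 0.758 CPM in CC080F1. Even the lowest IFN-γ quartile of each CC075F1 section was thus above the highest of either CC080F1 section. Quartiles were set within each section, so they do not match IFN-γ level between strains. By endothelial genes it went from 2.25 to 8.39 and from 1.63 to 6.79 CPM in CC075F1, and from 0.379 to 0.402 and from 0.251 to 0.475 CPM in CC080F1. By hypoxia genes it went from 7.11 to 2.10 and from 8.32 to 1.15 CPM in CC075F1. In CC080F1 it went from 0.526 to 0.332 and from 0.475 to 0.113 CPM. The 4 hypoxia quartiles of CC080F1 replicate 1 held 13, 6, 3 and 8 Ido1 UMIs, so the course there was not steady. Its IFN-γ quartiles held 5, 8, 4 and 13 Ido1 UMIs. Fibroblast genes gave no common direction, with 9.27 to 3.04 CPM in CC075F1 replicate 1 and 2.47 to 8.12 CPM in replicate 2.

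In CC075F1, spots high in IFN-γ genes, in endothelial genes or in both held more Ido1 than spots low in both. With each list split at its median, CC075F1 replicate 1 had 2.41 CPM of Ido1 in spots low in both lists, 5.97 in spots high in endothelial genes only, 5.69 in spots high in IFN-γ genes only and 7.88 in spots high in both. In CC075F1 replicate 2 these values were 1.62, 2.87, 5.98 and 8.25 CPM. In CC080F1 they were 0.251, 0.280, 0.461 and 0.324 CPM in replicate 1 and 0.119, 0.147, 0.430 and 0.615 CPM in replicate 2. These rest on 7, 6, 9 and 8 UMIs and on 5, 3, 7 and 21 UMIs, too few to order the classes of replicate 1. Kmo rose with the IFN-γ quartiles in every section, lowest to highest, from 0.805 to 2.53, 0.396 to 2.29, 1.51 to 4.44 and 1.43 to 4.93 CPM. Il4i1 did as well, from 0.466 to 0.969, 0.271 to 0.799, 0.594 to 1.15 and 0.535 to 1.56 CPM. In the highest IFN-γ quartile of each section, Kmo was higher in CC080F1 (4.44 and 4.93 CPM) than in CC075F1 (2.53 and 2.29 CPM). Ido1 was higher there in CC075F1. The quartiles do not match the strains in IFN-γ level. Over whole sections the IFN-γ list summed to 6235 and 4678 CPM in CC075F1 and 1947 and 2552 CPM in CC080F1.

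**Figure D5:**
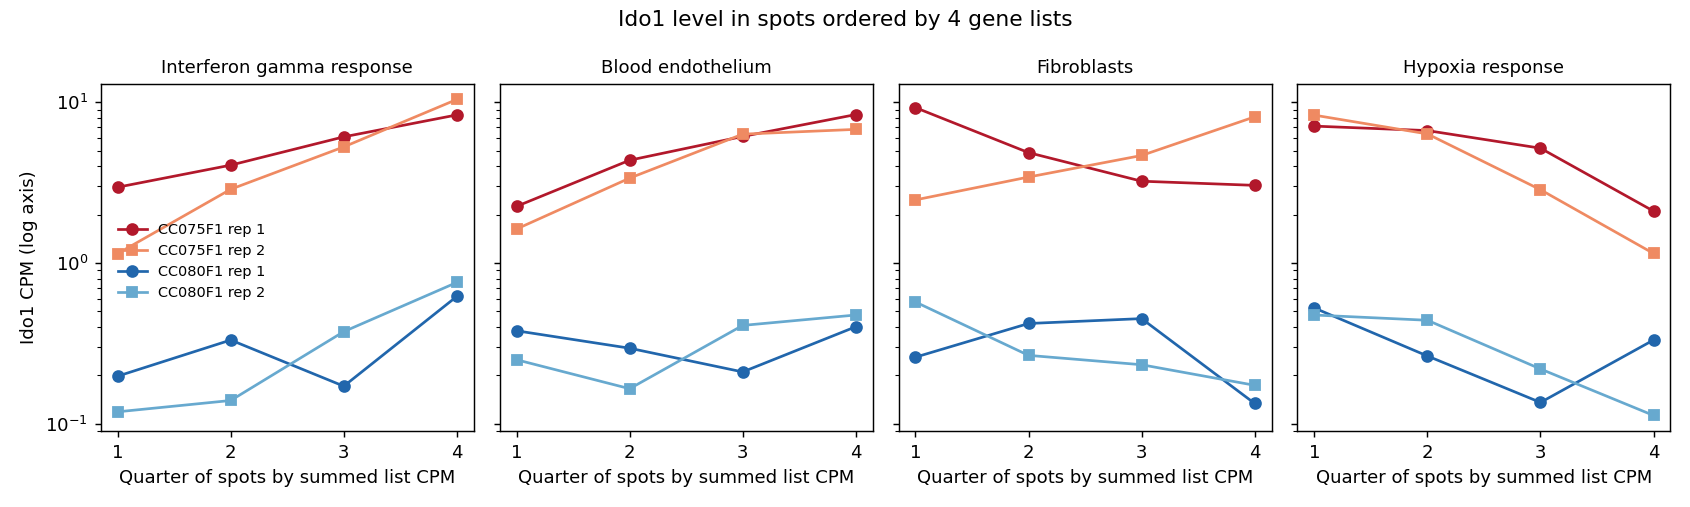
Ido1 level (CPM, log axis) in quartiles of spots ranked from lowest to highest summed CPM of IFN-γ, endothelial, fibroblast and hypoxia genes, with a line per section. Ido1 is higher in the top than in the bottom IFN-γ quartile and lower in the top than in the bottom hypoxia quartile in all 4 sections, and the CC075F1 lines lie above the CC080F1 lines in every panel.

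For the pattern over larger areas, the CC075F1 sections were cut in tiles of 8 rows by 16 columns with 20 spots or more (45 and 55 tiles). Ido1 ranged from 0 to 23.3 CPM over tiles (median 4.66) in replicate 1 and from 0 to 14.8 CPM (median 3.99) in replicate 2. The top quartile of tiles by Ido1 held 56.3% and 51.4% of its UMIs. Across tiles of a section, which share a library and lie side by side, the genes most like Ido1 by the lower of the 2 Pearson r on log2(CPM + 1) were Serpina3g (0.787 and 0.798), Ccl8 (0.760 and 0.771), Ifi30 (0.754 and 0.820), Col15a1, Mgp, Mest, Egfl7, Ctsc, Nucks1 and Igfbp7. Serpina3g is an interferon-induced serpin and Ifi30 a thiol reductase of antigen processing. By list, the median r was 0.649 and 0.701 for endothelial genes, 0.448 and 0.719 for IFN-γ genes and -0.677 and -0.737 for hypoxia genes, beside 0.037 and 0.326 over all 9783 genes. For type I interferon genes it was -0.224 and 0.247, with opposite signs in the 2 sections.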

How the data were processed

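RNA from 4 sections of MC38 tumors was measured with 10x Genomics Visium. Per the study's methods the authors ran Space Ranger 1.3.1 with a GRCm38 reference, and the tables they deposited give unnormalized UMI counts for every gene in every spot under tissue. The authors' SCTransform normalization in Seurat 5.0.1 was not used. Gene positions came from GENCODE vM21, an earlier release than the authors' annotation on the same build, in which 127 of 32285 identifiers had no position.

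Section totals were 82594649 to 146460975 UMIs. A count of 0 in a section allows up to 3 UMIs, or 0.0205 to 0.0363 CPM, and exact (Clopper-Pearson) 95% intervals cover counting error only. UMIs were summed per section for the strain comparison, and per section and spot class for member spots, each paired by depth with a spot of the same section that lacked the gene. Sums were fitted with edgeR 4.0.16 (R 4.3.3, limma 3.58.1) by quasi-likelihood, with TMM factors, filterByExpr, and the section as a block for spot classes. An SE or p was never allowed under that of Poisson counting. This limit was added after the first fits were seen. P-values were adjusted by Benjamini-Hochberg over all tested genes, with a threshold of 0.05. The strain difference in the Ido1 spot contrast was an interaction term. Numbers expected for shared spots came from 10 strata of spot depth.

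Alternatives were DESeq2 1.42.0, library size alone, no filter on low counts, spots with 2 UMIs or more, other controls, and leaving out each section. The alternative without spots of other tissue, the nearest-spot comparison for Ido2, Kynu, Kmo and Il4i1, and the Ido2 and Ido1 against Kmo comparisons were chosen after seeing the data. The fits were tested on simulated counts. In the strain design, 84 of 100 changes of 2-fold and 31 of 100 of 1.5-fold were called, with 3 unchanged genes of 15581 called in error. In the spot design all 100 of each were called, with 4 unchanged genes of 12140 called in error. The simulated spread between sums, as dispersion, was fixed at 0.02 for the strain design and 0.002 for the spot design. Changes were placed in well-counted genes, and no spatial structure was simulated. The simulation therefore does not give error rates in real spots, which are not reported here. Comparisons with few genes passing are open to the most doubt. These are Ido1 against Kmo and the nearest-spot fits for Ido1, Ido2 and Kynu.

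The 5 genes and the gene lists were chosen with earlier results of these data known, so no list is independent evidence. Named genes are the 5 members, up to 15 higher and 10 lower genes of the Ido1 spot comparison (up to 5 each for the others) with the largest change among those that passed, moved alike in every section and averaged 10 CPM or more, the 10 genes most like Ido1 over tiles (5 CPM or more), 2 to 4 highest genes of each list, and pathway genes that passed. Further list genes, Gzmd, Gzmf, Gzmg, Hbb-bt, Hbb-bs and the genes of the Ido1 against Kmo comparison were named after their values were seen. No strain p is given for the 5 genes. Some list genes are not reported here.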

Additional observations from a re-analysis of the deposited data

Results flagged for a closer look

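The Ido1 spot contrast differed between strains for 2 hemoglobin genes, by the interaction term over the 4 sections. For Hbb-bt the log2 difference of the contrast, CC075F1 minus CC080F1, was -2.815 (SE 0.49, edgeR adjusted p = 0.0166). Its levels in Ido1 spots and matched spots were 0.987 against 0.658 and 10.0 against 18.8 CPM in CC075F1 and 31.8 against 7.07 and 3.88 against 2.33 CPM in CC080F1. For Hbb-bs the difference was -1.924 (SE 0.29, edgeR adjusted p = 0.0027), with 11.3 against 9.88, 133 against 233, 154 against 51.3 and 23.3 against 24.0 CPM. The values with the widest gaps came from CC075F1 replicate 2, with 493 pairs, and CC080F1 replicate 1, with 28 pairs, and no gene passed without CC080F1 replicate 1. Hemoglobin RNA marks red blood cells, and its part in the other results was not tested.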

How the results depend on the processing

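Leaving out 1 section gave 7 to 170 genes higher and 2 to 45 lower between strains, and 0 to 2 pathway genes. In Ido1 spots it gave 91 to 304 higher and 118 to 272 lower, in Ido2 spots 33 to 123 and 25 to 104, in Il4i1 spots 52 to 127 and 1 to 12, in Kynu spots 9 to 107 and 9 to 58, and in Kmo spots 126 to 225 and 85 to 194. The interaction gave 0 to 12 genes and the Ido1 against Kmo comparison 3 to 27. The CC075F1 to CC080F1 ratio of level ran from 13.31 to 16.23 for Ido1, 7.593 to 21.38 for Ido2, 0.8184 to 1.826 for Kynu, 0.3425 to 0.5009 for Kmo and 0.5504 to 0.7395 for Il4i1, and that of the share of spots from 12.34 to 14.5, 9.439 to 17.81, 1.059 to 1.664, 0.4072 to 0.5303 and 0.6259 to 0.7758. Between strains, 9 genes higher and 5 lower became 137 and 57 by the DESeq2 Wald test, 22 and 18 with library size alone and 345 and 135 with no filter. Spots of 10000 UMIs or more gave 14 higher. Pathway genes past the threshold were 0, but 1 by DESeq2 (Ifng) and 2 with no filter (Haao and Ifng). With the replicate number as a block, 193 genes were higher and 94 lower, and 2 pathway genes passed (Haao and Ifng). With 2 pairs whose deviations correlated at 0.165, the shared numbers were not shown to pair the sections.

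In Ido1 spots, 277 higher and 242 lower became 77 and 90 with 2 UMIs or more of Ido1, 28 and 50 by the DESeq2 Wald test and 10 and 10 against the nearest spot. Library size alone gave 130 lower and all Ido1-free spots 442 lower. Nearest spots gave 2 higher and 1 lower for Ido2, 18 and 3 for Il4i1, 5 and 12 for Kynu and 23 and 25 for Kmo. Library size alone gave 49 lower for Ido2, 36 for Kynu and 107 for Kmo. No filter gave 34 lower for Il4i1 and 155 higher and 113 lower for Kynu, and without other tissue Il4i1 had 70 and 4. The strain ratio of Ido1 was 18.32 with TMM-scaled levels. Its share ratio was 41.67 for spots with 2 UMIs or more and 16.18 for thinned spots. At 2 UMIs or more the share ratio was 0.4844 for Kynu, 0.2357 for Kmo and 0.4325 for Il4i1, and it had no value for Ido2, at 0 in CC080F1. The Kynu ratios, 1.322 for level and 1.361 for share, went under 1 without CC075F1 replicate 1 (level) and at 2 UMIs or more (share). Directions of named genes turned only against the nearest spot. In Ido1 spots the log2 differences were then -0.1983 for Col1a2, -0.08282 for Serping1, -0.1364 for Postn, -0.1104 for Gpx3, -0.2037 for Bgn, -0.2849 for Col1a1 and 0.02306 for Ankrd37, and in Ido2 spots 0.02928 for Bnip3 and 0.2418 for Slc2a1. The cause was not tested. Of 675 values of named genes under alternatives, 570 kept their direction and call, 96 kept the direction alone and 9 turned. Few UMIs limited Kynu, with 124 in all, and in CC080F1 Ido1, with 30 and 36, and Ido2, with 6 and 10.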
